A study of Mus musculus with 15 samples.

Results

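Expression of 10 genes of the Notch pathway was followed in the embryonic mouse pancreas, namely the ligands Dll1, Dll4, Jag1 and Jag2, the receptors Notch1, Notch2 and Notch3, the DNA-binding factor Rbpj and the direct targets Hes1 and Hey1. The members were chosen by name, as the rows of the count table whose Ensembl identifier carries that symbol in the GENCODE M21 annotation, and they are 10 of the 25292 genes listed. All 10 carried enough reads to be tested.

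RNA was sequenced from 15 libraries in 5 groups of 3, all from mice labelled as strain C57/Bl6J. The fresh groups were pancreata at 14.5 days post coitum (dpc), either wild-type (wt) or labelled S1pr2 null. S1pr2 is a receptor for the signalling lipid sphingosine-1-phosphate (S1p), and the null allele, S1pr2tm1Rlp, carries a Neo cassette in exon 1 of the gene. The cultured groups started, by the methods of the study, from dorsal pancreatic buds of 14.5 dpc and were kept for 2 days on filters at the air-liquid interface (ALI) in serum-free medium. They were left in the standard condition (control), given 15 μM JTE013, an antagonist of S1pr2 (JTE), or given 15 μM JTE013 and 50 ng/ml connective tissue growth factor (JTE + CTGF). No genetic change is labelled in the cultured groups. Up to 3 organs or explants were pooled for each library, and the number in each library was not given. A value is thus a mean over all the whole tissue pooled, and the 3 libraries of a group were described as independent samples.

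Notch signalling passes between cells that touch. A ligand of the Delta-like or Jagged family on the surface of a cell binds a Notch receptor on its neighbour, the receptor is cut by ADAM and γ-secretase proteases, and its intracellular domain enters the nucleus, where it joins Rbpj and Mastermind proteins on DNA. Without that domain Rbpj binds corepressors and keeps its targets silent. Hes1 and Hey1 encode repressors that are switched on by this complex. In the developing pancreas Hes1 holds back Neurog3, the factor that starts endocrine differentiation, while cells that turn Neurog3 on raise Dll1 and thereby signal to their neighbours. Dll4, Notch4 and Hey1 are also genes of the blood vessel wall, and Notch3 and Jag1 are prominent in pericytes and smooth muscle.

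The libraries held 11402804 to 13828737 counted reads, and 16245 genes were tested. JTE library 3 stood apart from JTE libraries 1 and 2: the chi-square per gene was 17.2 and 23.2 in these pairs, against 2.35 to 10.2 in the other pairs of a group. The targeted gene, S1pr2, was not lower but higher in the libraries labelled S1pr2 null, with 1458, 1263 and 1354 normalised read counts against 772, 762 and 762 in wt (log2 fold change 0.83 ± 0.07 SE, edgeR quasi-likelihood test, adjusted p 4.5e-07). A count over the whole gene does not show whether exon 1 is interrupted, so the label could not be checked in this way, and directions given for this group rest on it. In control explants S1pr2 differed from wt by 0.10 (adjusted p 0.27), and by −0.05 when library totals replaced the scaling factors. All 8 acinar and all 6 trunk and duct markers listed for the pancreas had reads in every group.

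Levels were compared between genes as RPKM, that is read counts scaled to exon length and to library size, with the exon lengths of the count table. Hes1 had the highest level of the 10 genes in every group, from 30.9 ± 2.13 (SD, n = 3) in JTE to 42.0 ± 2.12 in JTE + CTGF. Next in wt came Notch2 with 22.7 ± 1.59 and Jag1 with 19.8 ± 1.14 RPKM, followed by Notch3 with 14.9 ± 0.382 and Notch1 with 13.3 ± 1.25. Dll1 had 9.41 ± 0.412, Hey1 7.28 ± 0.362, Dll4 7.05 ± 0.499, Rbpj 5.81 ± 0.24 and Jag2 5.78 ± 0.369 RPKM in wt. Neighbours in this order whose means differed by less than the sum of their SDs were Notch3 and Notch1, Hey1 and Dll4, and Rbpj and Jag2. In the S1pr2 null group Notch2 (30.3 ± 0.33), Jag1 (25.8 ± 1.41) and Notch3 (22.3 ± 1.24) followed Hes1. In control explants the order was different, with Dll4 second at 21.7 ± 1.4 RPKM followed by Hey1 at 16.6 ± 2.32, while Rbpj was the lowest at 1.87 ± 0.284. Notch2 (16.4 ± 0.609), Notch3 (14.9 ± 0.486), Jag1 (14.5 ± 0.747) and Notch1 (14.3 ± 0.976) all lay within the spread of Hey1. Notch3, Jag1 and Notch1 also lay within the spread of each other.

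**Figure D1:**
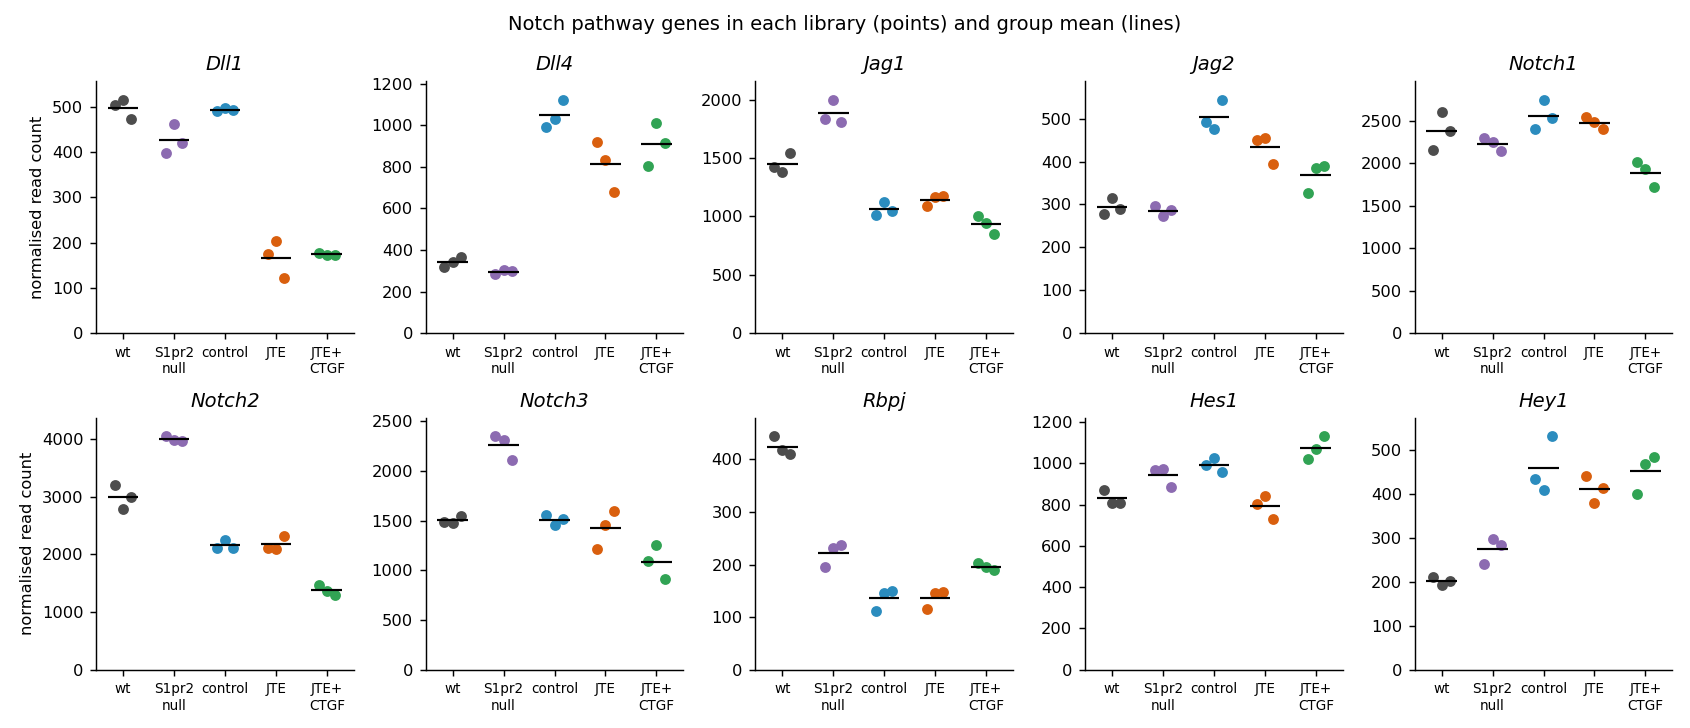
Normalised read count (vertical axis, from 0) of each of the 10 genes in the 15 libraries, with the 5 groups on the horizontal axis; points are libraries and lines are means of 3. Dll1 lies between 121.8 and 203 in the JTE libraries and between 490.5 and 499 in the controls, Dll4 and Hey1 are higher in every cultured library than in any fresh one, and Rbpj is lower in every cultured library than in wt.

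The genes lie on 6 chromosomes of the mm10 assembly. Dll1 spans chr17:15367354-15376872 on the minus strand in 12 exon blocks, Dll4 chr2:119325784-119335962 on the plus strand in 11, Jag1 chr2:137081456-137116644 on the minus strand in 25 and Jag2 chr12:112908590-112929495 on the minus strand in 26. Notch1 spans chr2:26457903-26516663 (minus), Notch2 chr3:98013538-98150367 (plus) and Notch3 chr17:32120820-32166880 (minus). Rbpj spans chr5:53555779-53657445 (plus), Hes1 chr16:30064384-30067796 (plus) and Hey1 chr3:8663362-8667039 (minus). Since the strand setting of the counting was not stated, reads of Notch1 and of its antisense neighbours Gm13568 and 0610009E02Rik cannot be told apart over 9.8% of the Notch1 exon bases, nor those of Dll4 and Gm14207 over 5.6%. Of the 50-base words of Rbpj transcripts 10.3% also occur in other genes, among them the pseudogenes Rbpj-ps1 and Rbpj-ps3.

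Promoter sequences, from 250 bases before to 50 after a transcript start, were found for 8 members in the RefSeq annotation of GRCm38.p6, the assembly also called mm10. Hes1 and Hey1 had no entry. The windows were searched for TGGGAA and its reverse complement TTCCCA, the core of the sequence that Rbpj binds. Of all 32851 promoters given there, 25.6% hold at least 1 of these, and 1.81% hold both. Among the 10 windows of the 8 members the only matches were in the 2 overlapping windows of Rbpj itself, and the longer words GTGGGAA and TTCCCAC, present in 6.38% of all promoters, were absent. A match is a description of the letters and not of binding. The 250 bases before the start are given for Rbpj, which fell most in culture, and for comparison for Dll1 and Dll4, the ligands that changed most with JTE013 and with culture. Both Rbpj windows belong to starts inside the span of the gene given above. Sequences run 5′ to 3′ on the strand of the gene, and capitals mark TGGGAA and TTCCCA.
Rbpj, chr5:53590096-53590345, plus strand: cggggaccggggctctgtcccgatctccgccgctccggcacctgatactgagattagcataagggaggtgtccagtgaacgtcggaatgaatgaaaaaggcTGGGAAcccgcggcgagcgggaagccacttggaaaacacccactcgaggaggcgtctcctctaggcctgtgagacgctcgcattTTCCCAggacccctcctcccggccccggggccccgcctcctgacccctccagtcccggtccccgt
Dll1, chr17:15376933-15377182, minus strand: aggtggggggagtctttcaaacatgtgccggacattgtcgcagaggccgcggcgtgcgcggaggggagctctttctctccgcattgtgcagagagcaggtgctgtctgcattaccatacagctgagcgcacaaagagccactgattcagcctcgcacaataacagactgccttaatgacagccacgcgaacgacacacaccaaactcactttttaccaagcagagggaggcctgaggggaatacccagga
Dll4, chr2:119325534-119325783, plus strand: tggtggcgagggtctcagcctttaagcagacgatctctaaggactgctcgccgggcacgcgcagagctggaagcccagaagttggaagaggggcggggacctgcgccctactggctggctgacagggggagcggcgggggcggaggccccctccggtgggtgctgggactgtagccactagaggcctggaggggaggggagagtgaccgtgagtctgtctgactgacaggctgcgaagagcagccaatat

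The first comparison asks how the pathway differed in the libraries labelled S1pr2 null. Of the 10 genes 5 were higher and 1 was lower than in wt at an adjusted p below 0.05 (edgeR quasi-likelihood test, Benjamini-Hochberg over all genes tested), where 25.8% of all genes passed, 12.6% higher and 13.3% lower. Among the ligands only Jag1 passed. Its normalised read count was 1424, 1382 and 1543 in wt and 1838, 2000 and 1809.5 in the S1pr2 null libraries (log2 fold change 0.38 ± 0.06, adjusted p 4.09e-04). The Delta-like ligands lay on the lower side without passing, Dll1 with −0.22 ± 0.10 (adjusted p 0.129) and Dll4 with −0.20 ± 0.11 (adjusted p 0.201), although the 3 libraries of each group did not overlap for either gene. Dll1 passed when only the 6 libraries compared were fitted (adjusted p 0.0277) or JTE library 3 was left out (adjusted p 0.0174). Groups did not overlap for 8 of the 10 genes and for 46.3% of all genes tested. Jag2 had −0.04 (95% interval −0.22 to 0.14).

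The receptors parted. Notch2 rose from 3200, 2782 and 2996 in wt to 4047, 3991 and 3962 (0.42 ± 0.06, adjusted p 9.14e-05), and Notch3 rose from 1487, 1479 and 1549 to 2345, 2306 and 2112 (0.58 ± 0.09, adjusted p 2.83e-04). Notch1 had 2154, 2600 and 2385 in wt and 2295, 2254 and 2145 in the S1pr2 null libraries, which overlap (−0.09, interval −0.24 to 0.06). Fold change moved with exon length over all genes: the median was 0.10 for genes with at least 8000 exon bases and −0.07 for those under 2000. With that trend removed, an alternative added after the data were seen, Notch1 was lower with −0.24 (edgeR, adjusted p 0.0204). Notch2 and Notch3 were still higher, with 0.31 (adjusted p 1.28e-04) and 0.51 (adjusted p 4.55e-04). As a share of the 3 receptor messages per kilobase, Notch1 fell from 26.2% ± 2.67 (SD, n = 3) to 19.2% ± 0.0891 and Notch3 went from 29.3% ± 0.518 to 34.3% ± 0.898.

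Rbpj was the most changed gene of the 10 in this comparison, and it was lower. Its normalised read counts were 444, 419 and 410.1 in wt and 196, 232 and 237 in the S1pr2 null libraries, a 1.91-fold difference (log2 fold change −0.93 ± 0.10, adjusted p 8.03e-06). Both targets lay on the other side. Hey1 had 212, 192 and 201 in wt and 239, 297 and 284 (0.44 ± 0.11, adjusted p 0.00786), and Hes1 had 869.6, 809 and 809 against 969, 970.5 and 886 (0.18 ± 0.06, adjusted p 0.0352). The Hes1 call was lost when wt library 2 or 3 or S1pr2 null library 1 or 2 was left out, with 0.16 in each case (adjusted p 0.115 to 0.123). With all libraries kept, it was also lost without the filter on low counts (edgeR, 0.18, adjusted p 0.0523).

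Several lists of cell type markers also differed from wt. Endocrine progenitor markers were lower for 6 of 8 genes, with a summed level of 645 to 718 CPM (read counts scaled to library size) in wt and 419.5 to 436 in the S1pr2 null libraries, and all 7 general epithelial markers were lower, with sums of 1971.5 to 2172 and 1392 to 1471. Pericyte and smooth muscle markers were higher for 3 of 8 genes and lower for 1, with sums of 538 to 587 and 674 to 712. Endothelial markers were higher for 4 of 14 and lower for none. All 8 acinar markers were lower, with sums of 6367 to 10784 CPM in wt and 2256.5 to 2431 in the S1pr2 null libraries. Mesenchyme markers were higher for 4 of 9 and lower for 4 (10970 to 11127 and 8693 to 10275.5 CPM). The only calls among 6 trunk and duct and 4 erythroid markers were 1 lower gene in each list. None of the 6 macrophage and 5 neural crest and Schwann markers passed. In whole tissue fewer cells of a type and less RNA per cell cannot be told apart, and the part of these markers in the values of the Notch genes was not tested.

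The second comparison asks how blocking S1pr2 with JTE013 changed the pathway in explants. Of the 10 genes 4 fell and none rose, where 52.2% of all genes were called, 25.9% higher and 26.2% lower. Groups did not overlap for 4 of the 10 genes and for 56.7% of all genes. The 4 were the ligands Dll1, Dll4 and Jag2 and the target Hes1. Dll1 changed most. Its normalised read count was 490.5, 499 and 493 in the control libraries and 175, 203 and 121.8 in the JTE libraries, so that every treated library lay far below every control. The difference was 2.98-fold (log2 fold change −1.57 ± 0.12, adjusted p 1.24e-08) and lay between −1.39 and −1.74 when a library of either group was left out, the smaller value without JTE library 3.

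The other ligands changed less. Dll4 had 993, 1029.5 and 1124 in controls and 920.4, 835 and 681 with JTE013 (−0.37 ± 0.09, adjusted p 0.00343), and −0.26 (adjusted p 0.0188) without JTE library 3. Jag2 fell by 0.22 ± 0.08 on the log2 scale (adjusted p 0.0302), a call that was lost without control library 3 or JTE library 3, with −0.16 in both cases (adjusted p 0.142 and 0.143). Jag1 had 0.11 (interval −0.03 to 0.25), and its libraries overlap between the groups. In the make-up of the ligands, Dll1 made up 16.8% ± 0.621 (SD, n = 3) of the 4 messages per kilobase in controls and 7.07% ± 1.31 with JTE013, while Jag1 went from 26.2% ± 1.39 to 35.7% ± 3.86 and Dll4 from 39.1% ± 1.09 to 38.0% ± 3.16.

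**Figure D2:**
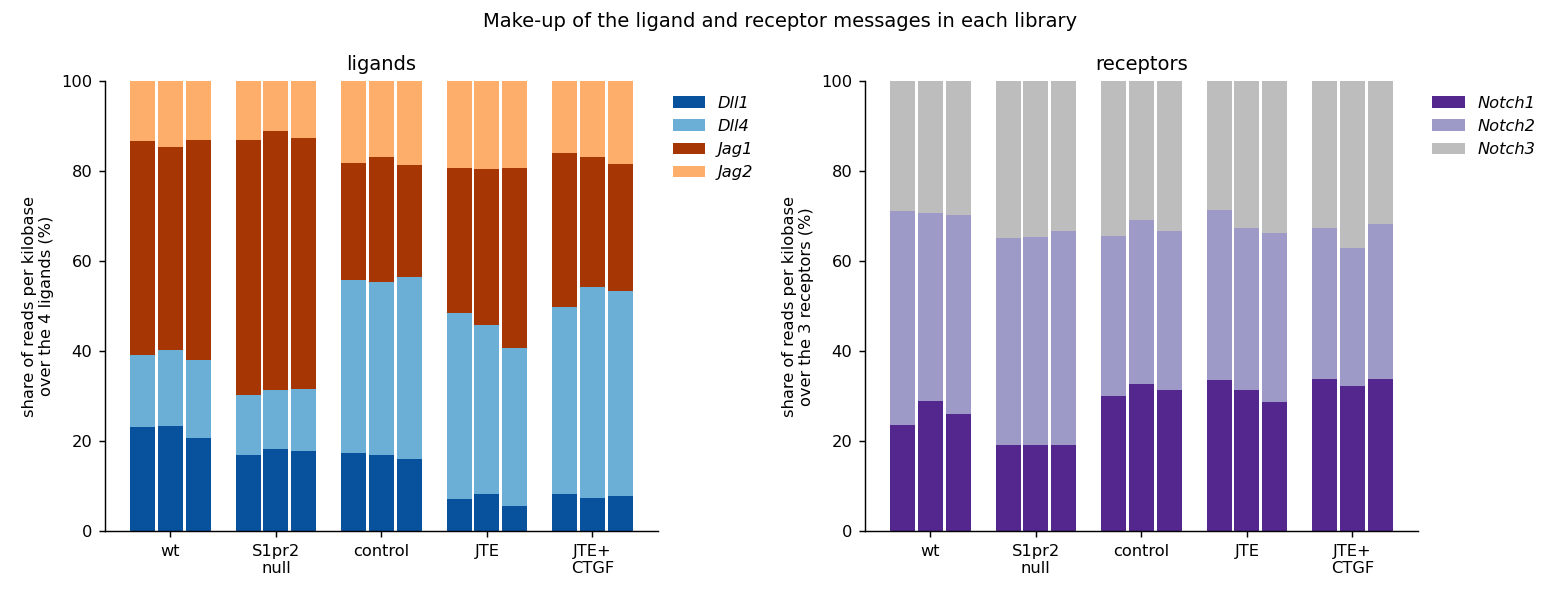
Share of each ligand among the 4 ligands (left) and of each receptor among the 3 receptors (right), in percent of reads per kilobase, with 1 bar for each of the 15 libraries. Dll1 shrinks in the JTE and JTE + CTGF bars, Dll4 is larger in all cultured bars than in fresh ones, and Jag1 is the largest ligand share in fresh pancreata.

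None of the receptors passed the test with JTE013. The log2 fold changes were −0.05 for Notch1 (interval −0.20 to 0.10), 0.01 for Notch2 (−0.12 to 0.14) and −0.08 for Notch3 (−0.29 to 0.12). Rbpj had 112.5, 147 and 150.0 in controls and 115, 146 and 147 with JTE013, which is a difference of 0.00 (−0.26 to 0.26). Among the targets Hes1 fell, from 993, 1023.5 and 957 to 801, 839 and 732 (−0.33 ± 0.06, adjusted p 2.75e-04), and the groups did not overlap. Hey1 had 434, 408 and 530.1 in controls and 439, 379.8 and 413 with JTE013 (−0.16, interval −0.37 to 0.06). Set against Hes1 per kilobase, Dll1 stood at 0.241 ± 0.00721 (SD, n = 3) in controls and at 0.101 ± 0.0187 with JTE013, so that the ligand fell further than the target.

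Hes6, a factor related to Hes1 that is linked to endocrine progenitors, fell by 0.93 ± 0.07 on the log2 scale with JTE013 (adjusted p 1.73e-08). Marker lists moved here too. Trunk and duct markers were lower for 4 of 6 genes, with a summed level of 1951.5 to 2253 CPM in controls and 987.5 to 1097 with JTE013, endocrine progenitor markers for 5 of 8 (468 to 498 and 308 to 381 CPM) and endothelial markers for 9 of 14, with 1 higher (666 to 813 and 517 to 579 CPM). All 6 macrophage markers were lower, with sums of 288 to 336 CPM in controls and 136 to 178 with JTE013, as were 4 of 7 general epithelial markers (2866 to 3386 and 1991 to 2502 CPM). Not every list fell. Acinar markers were higher for 1 of 8 and lower for 0 (46215 to 61555 CPM in controls and 45920 to 83025 with JTE013). Mesenchyme markers were higher for 3 of 9 and lower for 3 (10437 to 10911 and 11196 to 13690 CPM). Neurog3 had −0.53 (adjusted p 0.0427). The part of these cell types in the fall of Dll1, Dll4 and Hes1 was not tested.

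A further comparison asks what CTGF changed in the presence of JTE013. Dll1 did not differ detectably between the treatments: its counts were 177, 173 and 173 with JTE + CTGF, all inside the range of the JTE libraries (0.07 ± 0.13, interval −0.21 to 0.35). Of the 10 genes 2 were higher and 5 lower than with JTE013 alone, where 30.4% of all genes passed, 13.6% higher and 16.8% lower. Groups did not overlap for 6 of the 10 genes and for 40.2% of all genes. Hes1 rose to 1022, 1068 and 1130.0, above every JTE library (0.44 ± 0.06, adjusted p 5.13e-05), and Rbpj rose to 202, 195 and 189.5 (0.52 ± 0.12, adjusted p 0.00352). Hey1 had 0.13 (interval −0.08 to 0.35) and Dll4 0.17 (−0.04 to 0.37).

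The receptors were all lower with JTE + CTGF than with JTE013 alone. Notch2 had 1467, 1365 and 1292 against 2109.6, 2090.1 and 2325 (−0.66 ± 0.06, adjusted p 1.34e-06), Notch1 had −0.39 ± 0.07 (adjusted p 5.92e-04) and Notch3, whose libraries overlap, had −0.39 ± 0.10 (adjusted p 0.00657, and 0.0522 in a fit of these 6 libraries alone). These messages are long, with 14232, 10506 and 8044 exon bases for Notch1, Notch2 and Notch3, and in this comparison fold change moved with exon length over all genes: the median was −0.32 over the 1576 tested genes with at least 8000 exon bases and 0.15 over the 4074 genes under 2000 bases. With that trend removed, Notch2 was still lower (−0.34, adjusted p 1.14e-04), while Notch1 had 0.04 (adjusted p 0.763) and Notch3 −0.16 (adjusted p 0.236). Hes1 (0.35, adjusted p 3.82e-04) and Rbpj (0.64, adjusted p 7.89e-04) remained higher. The cause of the trend was not tested. Among the ligands Jag1 was lower (−0.29 ± 0.07, adjusted p 0.00341), and Jag2 had −0.23 ± 0.08 (adjusted p 0.0447), a call that was lost under DESeq2 (adjusted p 0.0946), with the trend removed (adjusted p 0.095) and when any of 9 of the 15 libraries was left out (adjusted p 0.0502 to 0.191).

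**Figure D3:**
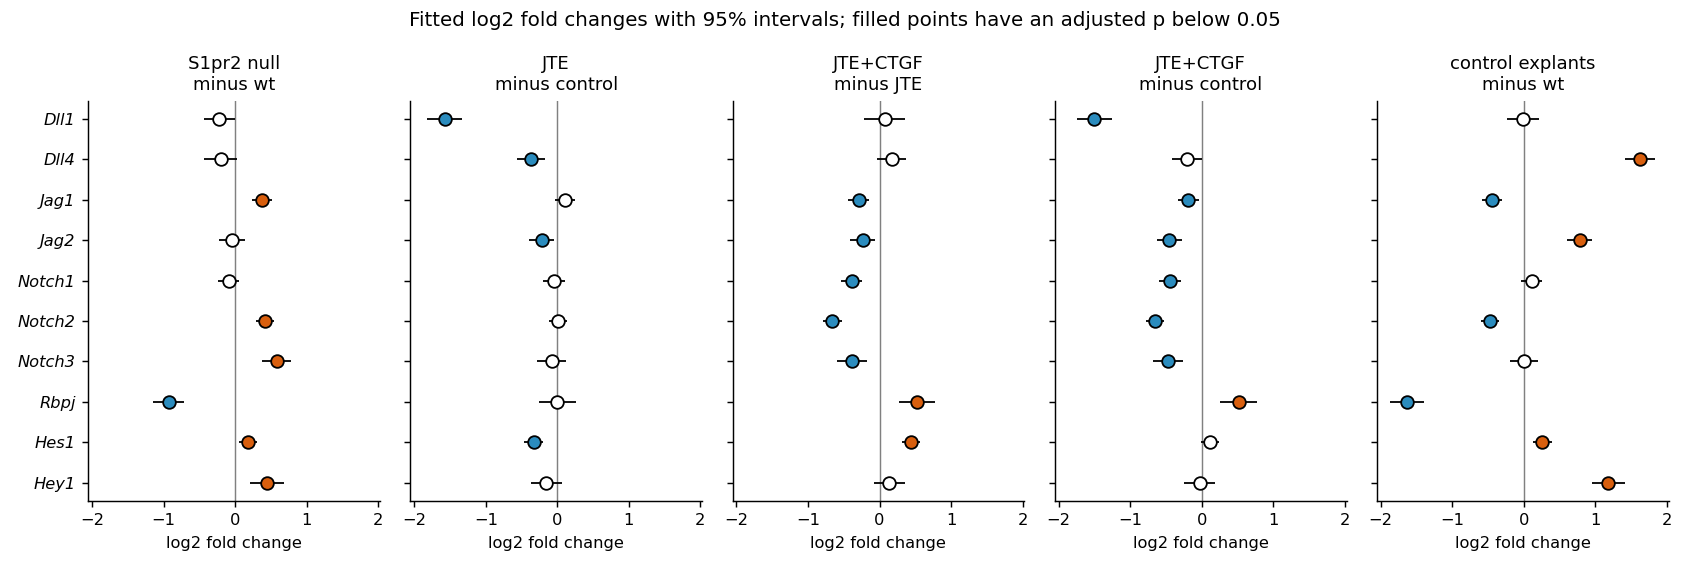
Fitted log2 fold change of each gene (horizontal axis) in 5 comparisons, with 95% intervals as lines; filled points have an adjusted p below 0.05, orange above and blue below 0. Dll1 lies at −1.57 and −1.50 in the comparisons of JTE and JTE + CTGF with control, the receptors lie below 0 in the comparisons that involve JTE + CTGF, and Dll4, Hey1 and Rbpj lie farthest from 0 in the comparison of control explants with wt.

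Against control explants, JTE + CTGF explants had 1 of the 10 genes higher and 6 lower, where 61.1% of all genes were called, 28.1% higher and 33% lower, and groups did not overlap for 7 of the 10 and for 64.8% of all genes. This comparison shares its controls with that of JTE013 alone, so its values stand beside the earlier ones and do not add to them. Dll1 was 2.83-fold lower (−1.50 ± 0.12, adjusted p 1.68e-08), against −1.57 with JTE013 alone. Dll4 had −0.20 (adjusted p 0.0715, and 0.0239 without JTE + CTGF library 2), Jag2 −0.46 ± 0.08 (adjusted p 1.62e-04) and Jag1 −0.19 ± 0.07 (adjusted p 0.0248). The Jag1 call was lost with the length trend removed (−0.10, adjusted p 0.142) and without control library 2, JTE library 3 or JTE + CTGF library 3 (adjusted p 0.0521 to 0.139). Hes1, with 1022 to 1130.0 against 957 to 1023.5 in controls, had 0.11 (adjusted p 0.111, and 0.0259 without JTE library 3) and Hey1 −0.02 (interval −0.24 to 0.19). Rbpj was higher (0.52 ± 0.12, adjusted p 0.00133). The receptors had −0.44 for Notch1, −0.65 for Notch2 and −0.47 for Notch3 (adjusted p 5.07e-05, 1.51e-07 and 5.36e-04), and −0.08 (adjusted p 0.34), −0.40 and −0.30 with the length trend removed. Set against Hes1 per kilobase, Dll1 stood at 0.0786 ± 0.00492 (SD, n = 3), the lowest mean of the 5 groups.

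The last pairwise comparison sets control explants after 2 days of culture against fresh wt pancreata. Dll4, Hey1 and Rbpj had their largest fold changes of the pairwise comparisons here. Dll1, however, was at the same level: 504, 516 and 474 in wt and 490.5, 499 and 493 in control explants (−0.01, interval −0.23 to 0.21). Culture, the 2 days of age and the use of the dorsal bud cannot be told apart in this comparison. Of the 10 genes 4 were higher and 3 lower, where 57.8% of all genes were called, 28.5% higher and 29.3% lower. Groups did not overlap for 7 of the 10 genes and for 63.8% of all genes. Dll4 was 3.08-fold higher, from 316, 342 and 364 to 993, 1029.5 and 1124 (log2 fold change 1.62 ± 0.10, adjusted p 9.13e-10). Jag2 rose from 277, 314 and 290.0 to 493, 476.5 and 545 (0.78 ± 0.08, adjusted p 5.51e-07), and Jag1 fell from between 1382 and 1543 to between 1015 and 1122 (−0.45 ± 0.07, adjusted p 1.88e-05). The ligand make-up changed accordingly. Dll4 made up 16.7% ± 0.737 (SD, n = 3) of the ligand messages per kilobase in wt and 39.1% ± 1.09 in control explants, and Jag1 47.1% ± 1.85 and 26.2% ± 1.39.

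Among the receptors Notch2 fell from 3200, 2782 and 2996 to 2106, 2250.0 and 2116 (−0.47 ± 0.06, adjusted p 4.31e-06), while Notch1 had 0.11 (interval −0.04 to 0.26) and Notch3 0.00 (−0.20 to 0.20), which became −0.04 and −0.14 with library totals. Rbpj fell 3.10-fold, from 410.1 or more in each wt library to 150.0 or less in each control explant (−1.63 ± 0.11, adjusted p 2.34e-09). Hey1 rose 2.27-fold, from 192 to 212 in wt to 408 to 530.1 in control explants (1.18 ± 0.11, adjusted p 9.52e-08). Hes1 rose by 0.26 ± 0.06 (adjusted p 0.00166). With library totals in place of TMM factors, which moves the median of all genes by −0.143 in this comparison and the share of higher among called genes from 49.3% to 33.0%, Hes1 had 0.11 (adjusted p 0.0891), Hey1, Dll4 and Jag2 were still higher and Rbpj, Jag1 and Notch2 still lower.

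Since Dll4 and Hey1 are known from vessel walls, the 14 endothelial markers are set beside them. In control explants 5 of these were higher and 8 lower than in wt, with a median of −0.42 and summed levels of 746 to 756 CPM in wt and 666 to 813 in control explants. Notch4, the other receptor, which is restricted to endothelium in most tissues, rose 3.11-fold (1.63 ± 0.12, adjusted p 4.89e-09). Claudin 5 (Cldn5, 0.69) and Esam (0.60), both junction proteins of endothelium, were higher, and the receptor genes Tek (−1.73), Flt1 (−0.69) and Kdr (−0.37) were lower. Dll4 and Notch4 thus rose by more than any of the 14 markers. With JTE013, Notch4 had −0.40 (adjusted p 0.00592), Dll4 −0.37 and the median marker −0.36. The 14 markers ranged widely there, from −1.59 to 0.68, and the part of endothelial cells in the values of the Notch genes was not tested.

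**Figure D4:**
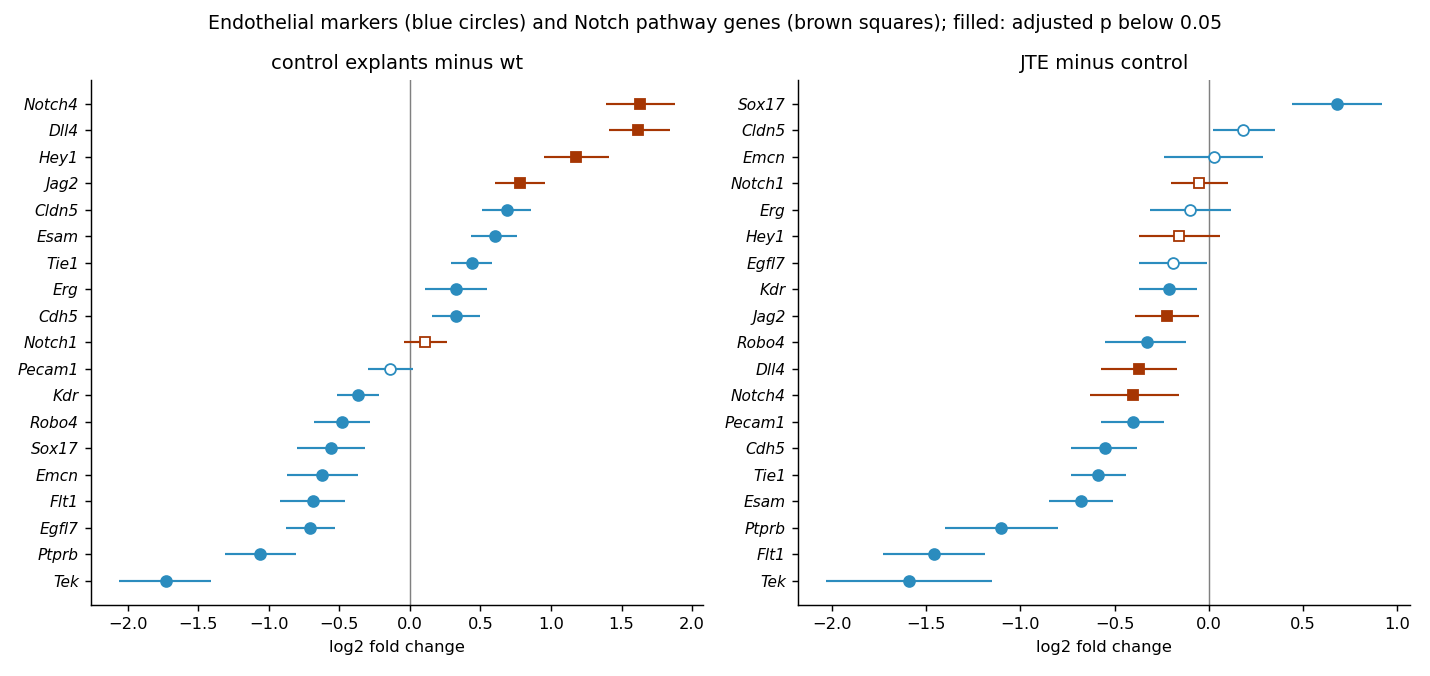
Fitted log2 fold change (horizontal axis, with 95% intervals) of 14 endothelial markers (blue circles) and 5 Notch pathway genes (brown squares), in control explants against wt (left) and in JTE against control explants (right); filled symbols have an adjusted p below 0.05. On the left Notch4, Dll4, Hey1 and Jag2 lie above all markers, and on the right they lie among them.

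Other cell types moved as well between wt and control explants. Acinar markers were higher for 5 of 8 genes and lower for 1, with summed levels of 6367 to 10784 CPM in wt and 46215 to 61555 in control explants, trunk and duct markers were higher for 4 of 6 and lower for 1 (1289 to 1421 and 1951.5 to 2253 CPM), and general epithelial markers were higher for 5 of 7 (1971.5 to 2172 and 2866 to 3386 CPM). Macrophage markers were higher for 5 of 6 (90.6 to 98.5 and 288 to 336 CPM) and all 4 erythroid markers were lower (53.7 to 75.8 and 1.78 to 2.48 CPM). Their part in the values of the Notch genes was not tested.

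Neurog3 itself was lower by 2.44 (log2) in control explants than in wt, with mean normalised read counts of 439 and 2387, while Dll1 differed by −0.01. The endocrine progenitor markers did not all follow Neurog3, which fell most. Of the 8, with Neurog3 among them, 4 were lower and 1 was higher there, with a median of −0.24 and a range of −2.44 to 0.76. With JTE013 the values were −0.53 for Neurog3 and −1.57 for Dll1, and in the S1pr2 null libraries −0.42 (adjusted p 0.0718) for Neurog3 and −0.22 for Dll1.

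The response to JTE013 was then set against the difference between S1pr2 null and wt, which shares no library with it, by testing the difference of these differences. It passed for 7 of the 10 genes, 1 higher and 6 lower, where 42.9% of all genes passed, 21.5% in each direction. Dll1 fell further with JTE013 than in the null libraries (difference −1.35 ± 0.16, adjusted p 4.16e-06). Rbpj was lower in the null libraries and the same with JTE013 (0.93 ± 0.16, adjusted p 2.11e-04). Hes1 fell with JTE013 and was higher in the null libraries (−0.51 ± 0.09, adjusted p 1.74e-04), and Hey1 (−0.60 ± 0.15, adjusted p 0.00436), Notch3 (−0.66 ± 0.14, adjusted p 8.31e-04) and Notch2 (−0.41 ± 0.09, adjusted p 0.00109) were higher in the null libraries without a detectable change with JTE013. Jag1 had −0.27 ± 0.09 (adjusted p 0.0266), a call that was lost when any of 5 libraries was left out (adjusted p 0.0546 to 0.079). No difference was detected for Dll4 (−0.17, interval −0.48 to 0.14), Jag2 (−0.18, −0.43 to 0.07) and Notch1 (0.04, −0.17 to 0.25). The JTE013 response was measured in cultured dorsal buds and the null difference in whole fresh organs, so treatment, culture and tissue cannot be told apart here.

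The rest of the pathway was read from a list of 58 genes, of which 54 were tested. In the S1pr2 null libraries 8 were higher and 6 lower (25.9%, against 25.8% of all genes). That count of 14 was 6 without S1pr2 null library 3, 9 without wt library 3 and 22 in a fit of the 6 libraries compared, while the count over all genes went from 4199 to 3210, 3158 and 5388. With the length trend removed the split was 6 higher and 11 lower. The largest change was a fall by 1.48 ± 0.27 of Rbpjl, the acinar relative of Rbpj that works with Ptf1a (adjusted p 7.3e-04), in libraries where all 8 acinar markers, Rbpjl among them, were lower. The target Heyl fell by 0.57 ± 0.08 (adjusted p 1.11e-04), Lfng, whose product adds sugars to Notch receptors, by 0.52 ± 0.17 (adjusted p 0.029), and the γ-secretase gene Psen2 by 0.31 ± 0.08 (adjusted p 0.008). The Lfng call was lost without wt library 2 or 3 or any S1pr2 null library (adjusted p 0.0663 to 0.103), and that of Psen2 without S1pr2 null library 3 (adjusted p 0.0515). Maml2, a Mastermind coactivator, rose by 0.53 ± 0.12 (adjusted p 0.0032).

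With JTE013, 16 of the 54 genes were higher and 12 lower (51.9%, against 52.2%). By role, γ-secretase and other protease genes were higher for 5 of 10 and lower for 1, led by Aph1c (1.64 ± 0.20, adjusted p 2.93e-06). Aph1c had few reads, with mean normalised read counts of 44.4 in controls and 139.5 with JTE013. Of the 4 genes that act on ligands in the sending cell, Mib1 and Mib2 were higher and Neurl1a lower, and Mib2, a ubiquitin ligase for ligands, rose by 0.98 ± 0.05 (adjusted p 3.02e-10). Lfng fell by 1.36 ± 0.18 (adjusted p 9.49e-06), and Fhl1, which encodes a binding partner of Rbpj, rose by 0.95 ± 0.09 (adjusted p 1.23e-07). The other targets tested were lower for 2 of 4, Heyl with −0.79 and Nrarp with −0.55 (adjusted p 5.26e-07 and 0.00144), and Hey2 and Dtx1 did not pass. Hes5 had between 0 and 10 reads in any library and was not tested.

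Sel1l, which encodes a part of the ER degradation machinery and was first known as a negative regulator of Notch in worms, had mean normalised read counts of 2768 ± 164 (SD, n = 3) in wt, 2155 ± 33.7 in S1pr2 null, 4899.6 ± 1022 in control, 10133 ± 2154 in JTE and 9619 ± 420.5 in JTE + CTGF. It was 2.07-fold higher with JTE013 than in controls (1.05 ± 0.13, adjusted p 6.41e-06) and 1.77-fold higher in control explants than in wt (0.82 ± 0.14, adjusted p 6.19e-05). In the S1pr2 null libraries it had −0.36 ± 0.14 (adjusted p 0.0612), which passed under 5 of 6 other settings (adjusted p 0.00346 to 0.0429 in 4 fits of all libraries and 4.29e-05 in a fit of the 6 libraries compared) and not under DESeq2. With a library left out, Sel1l passed in only 4 of 15 fits (edgeR, adjusted p 0.014 to 0.188).

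**Figure D5:**
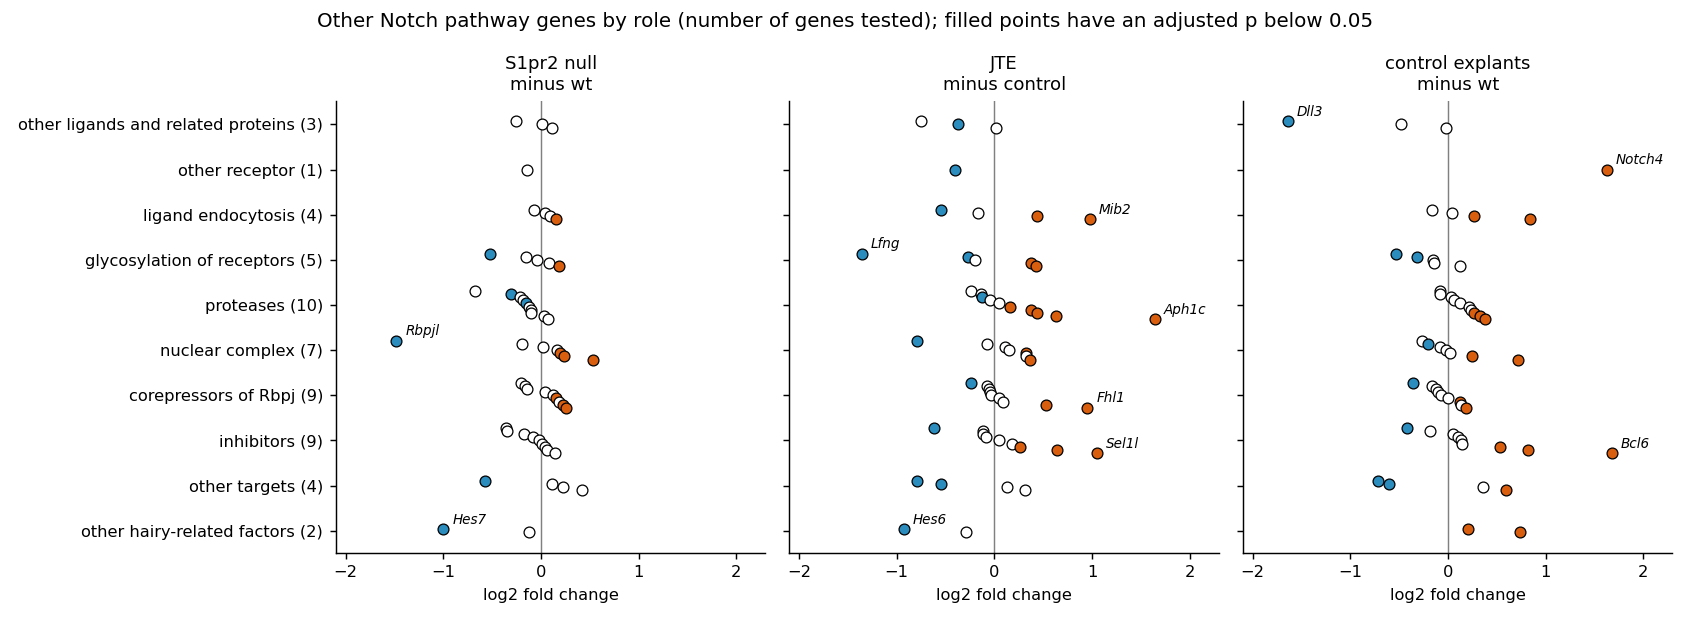
Fitted log2 fold change (horizontal axis) of the other Notch pathway genes tested, 1 point per gene in rows by role, for S1pr2 null against wt, JTE against control and control explants against wt; filled points have an adjusted p below 0.05, and those beyond 0.9 in size are named. The largest points are Rbpjl on the left, Aph1c and Lfng in the middle and Bcl6, Dll3 and Notch4 on the right.

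With JTE + CTGF against JTE013 alone, 5 of the 54 genes were higher and 11 lower (29.6%, against 30.4%), and with the length trend removed 11 were higher and 6 lower. Among those that fell were the coactivators Ep300 (−0.78 ± 0.07) and Maml3 (−0.62 ± 0.08), the corepressor Spen (−0.78 ± 0.07) and Neurl1b (−0.45 ± 0.09), a ubiquitin ligase for ligands. With the trend removed these had −0.53, −0.46, −0.36 and −0.32, with adjusted p from 1.69e-05 to 0.0126. Against control explants 14 genes were higher and 20 lower with JTE + CTGF (63.0%, against 61.1%), among them Lfng (−1.36 ± 0.19), Maml2 (−1.06 ± 0.14), Aph1c (1.17 ± 0.20), Mib2 (1.00 ± 0.05) and Sel1l (0.97 ± 0.13). Hes6 had −0.73 ± 0.07 (adjusted p 1.67e-07).

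In control explants against wt 16 genes were higher and 8 lower (44.4%, against 57.8%), and with library totals in place of TMM factors 11 were higher and 17 lower. Beside Notch4, Bcl6, a repressor that can displace Mastermind from Notch complexes, rose by 1.68 ± 0.15 (adjusted p 6.27e-08) and Neurl1a by 0.84 ± 0.09 (adjusted p 4.4e-07). Dll3, a ligand that does not activate receptors, fell by 1.64 ± 0.25 from a mean of 58.5 to 18.7 normalised read counts (adjusted p 2.71e-05). Other targets did not follow Hes1 and Hey1 as a group: Heyl rose by 0.60 ± 0.08 (adjusted p 5.67e-06), while Hey2 had −0.72 ± 0.17 and Nrarp −0.60 ± 0.12 (adjusted p 0.0017 and 3.16e-04). Hes6 had 0.21 ± 0.07 (adjusted p 0.0137), and 0.07 (adjusted p 0.341) with library totals.

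The genes closest in pattern to each member were sought among 11447 other genes with a mean of at least 100 normalised read counts, by the root mean square difference of centred log2 CPM over the 15 libraries. These libraries fall into 5 groups, so the measure mainly compares group means, and it is given as a description. For Dll4 the nearest were Sat1 (0.102), Notch4 (0.104) and Ptp4a3 (0.111), for Hey1 the growth factor genes Tgfb1 (0.142) and Tgfb2 (0.161) with Tgif1 (0.16) between them, while among those nearest to Dll1 were Slc38a5 (0.145) and the smooth muscle actin gene Acta2 (0.21). For Rbpj, Ublcp1 (0.21), Eng (0.29) and Lypd6 (0.301) were nearest, and the first of these was farther off than the nearest gene of any other member. The nearest genes were Eml4, Nol4l and Tut4 for Jag1, Srebf2, Myo10 and Myadm for Jag2, and Ptov1, Twf2 and Mapkapk2 for Hes1. For the receptors they were Rere, Sec24b and Sptan1 (Notch1), Sox6, Macf1 and Prdm11 (Notch2), and Crim1, Pcm1 and Pxdn (Notch3).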

How the data were processed

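RNA-seq was analysed for 15 libraries, 3 in each of 5 groups taken from the sample labels. The raw read count per gene was deposited by the authors: strand-specific reads were aligned with GSNAP to mm10 and counted with featureCounts (1.4.6) per the submitters' processing notes, and whether counting used strand is not given in the sources used here. Gene symbols were joined by Ensembl identifier from GENCODE M21, for 24750 of 25292 genes (97.9%).

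Counts were filtered with filterByExpr, scaled by TMM factors and tested with edgeR (4.0.16) quasi-likelihood tests, with 1 coefficient per group over all libraries. Benjamini-Hochberg adjustment covered 16245 genes, with calls made at an adjusted p below 0.05, and the biological coefficient of variation was 7.3%. Normalised read counts are counts per effective library size, and fold changes are fitted log2 values with SE or 95% intervals. Totals of 11402804 to 13828737 reads limit what low genes can show. On simulated counts for JTE against control, 196 of 200 changed genes and 8 unchanged ones were called among 14293 genes tested. The changed genes were given log2 fold changes of 1 in size, up or down. Smaller changes were not simulated, so the share found does not apply to them. The share of changed genes found in the measured libraries, some of which stood apart from their group, was not tested. The difference of differences was tested in the same model. Motifs were searched on both strands.

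The members and lists were chosen with earlier results of these data known. All members, S1pr2, Sel1l and Hes6 were named, as were the 5 other pathway genes with the largest called fold change in each comparison at a mean count of at least 50 in either group, the 3 genes of most similar pattern to each member, and markers set beside a member; some genes that this rule names are not reported here. Values for the remaining pathway genes named (Mib1, Neurl1a, Nrarp, Hey2, Heyl, Dtx1, Hes5 and Notch4 with JTE013) and for Neurog3 were added after they were seen. Alternatives were DESeq2 (1.42.0), library totals as scaling, no filter on low counts, the replicate number as a block, a fit of the libraries compared, shares without division by exon length and each library left out. Removal of the trend with exon length was chosen after seeing the data.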

Additional observations from a re-analysis of the deposited data

Results flagged for a closer look

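The differences between the JTE013 response in explants and the difference between S1pr2 null and wt in fresh pancreata passed the test for 7 of the 10 Notch genes and for 26 of the 54 other pathway genes tested (48.1%, against 42.9% of all genes). On the log2 scale they were −1.35 for Dll1, −0.27 for Jag1, −0.41 for Notch2, −0.66 for Notch3, 0.93 for Rbpj, −0.51 for Hes1 and −0.60 for Hey1.

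Of the other pathway genes, 5 are given because their called differences were the largest in this contrast, so that they had to pass. They were 2.32 for Aph1c (edgeR quasi-likelihood test, adjusted p 2.05e-05), −1.32 for Maml2 (adjusted p 2.21e-05) and 1.80 for Rbpjl (adjusted p 0.00105). The Aph1c value rests on few reads, with mean normalised read counts of 37.4 in wt and 23.5 in S1pr2 null. Fhl1 had 1.16 (adjusted p 1.54e-06) and Sel1l 1.41 (adjusted p 2.12e-05). Hes6, named for its role, had −0.81 (adjusted p 6.39e-06). The contrasts come from cultured and fresh tissue, and culture and treatment cannot be told apart in them.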

How the results depend on the processing

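The count of called Notch genes stayed within 1.5 times its value in each comparison, under each alternative, except that removing the trend with exon length left 4 in place of 7 for JTE + CTGF against JTE013. For the other pathway genes in S1pr2 null against wt, 14 were called with all libraries, 22 (12 higher, 10 lower) in a fit of the 6 libraries compared, and 6 to 19 with a library left out (6 without S1pr2 null library 3, 9 without wt library 3). The cause was not tested. Shares of the ligands depended on the division by exon length. Without it Dll1 had 19.3% in place of 22.4% in wt, and Jag1 had 56.1% in place of 47.1%. Dll4 had 33.7% in place of 39.1% in control explants.

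Values close to 0 changed sign. For JTE against control, Notch2 had −0.01 under DESeq2, −0.06 with the length trend removed and −0.04 to 0.04 with a library left out, and Rbpj had 0.01 without the filter and −0.12 to 0.10 with a library left out. Notch1 ranged from −0.09 to 0.01 there, Notch3 from −0.17 to 0.02 and S1pr2 from −0.02 to 0.10. For JTE + CTGF against JTE013, Notch1 had 0.04 and Sel1l 0.17 with the length trend removed, and with a library left out Sel1l ranged from −0.19 to 0.08 and Dll1 from −0.08 to 0.24. For JTE + CTGF against control, Hey1 had 0.01 without the filter, 0.00 in the fit of the libraries compared and −0.10 to 0.10 with a library left out. In control explants against wt, Dll1 had 0.00 under DESeq2, 0.01 without the filter, 0.01 in the fit of the libraries compared and −0.05 to 0.01 with a library left out, and Notch3 ranged from −0.02 to 0.03. With library totals, Notch1 had −0.04, Notch3 −0.14 and S1pr2 −0.05. With a library left out, Jag2 ranged from −0.08 to 0.01 in S1pr2 null against wt and Notch1 from −0.02 to 0.11 in the difference of differences.

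Replicate numbers did not pair the samples throughout: 7 of 30 same-numbered pairs correlated above 0.1 in their deviations from the group means (−0.346 to 0.574), and 6 of 15 libraries correlated best with their own number. The highest value was between control and JTE, where libraries 1, 2 and 3 had 0.0439, 0.38 and 0.574, so a shared structure is possible there. With the number as a block, 6 of the 10 genes were called for S1pr2 null against wt, 4 for JTE against control, 6 for JTE + CTGF against JTE013, 7 for JTE + CTGF against control and 7 for control explants against wt, and Jag2 in JTE + CTGF against JTE013 had −0.24 (edgeR, adjusted p 0.0576).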
